A study of Homo sapiens with 11 samples.

Results

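The genes described here encode the enzymes that carry pyruvate, ketone bodies and branched-chain amino acids into the tricarboxylic acid (TCA) cycle, together with the cycle itself and the malate-aspartate enzymes beside it. They were chosen by name as a list of 33 gene symbols, and 32 of the 33 were found among the 19990 genes of the deposited count table, while BDH1 was not analysed here. The cells were cardiomyocytes made by differentiating WTC11, a widely used line of human induced pluripotent stem cells, at passage 63. In all groups differentiation was started with the GSK3 inhibitor CHIR99021, followed by the Wnt secretion inhibitor IWP2, and the wells were then kept in RPMI1640 with B27 containing insulin. Poly(A) RNA was sequenced from 4 wells on Day 30, 3 wells on Day 60 and 4 wells on Day 113, with no treatment between the groups other than time in culture. All wells came from 1 differentiation of 1 line, so the p-values below measure the spread between wells only. Day of culture and day of collection cannot be told apart.

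In a mitochondrion, the pyruvate dehydrogenase complex turns pyruvate into acetyl-CoA, which citrate synthase joins to oxaloacetate to begin the TCA cycle. Ketone bodies reach the same acetyl-CoA through a CoA transferase and a thiolase, and leucine, isoleucine and valine reach it or succinyl-CoA after transamination and an irreversible decarboxylation by the branched-chain keto acid dehydrogenase complex. The malate-aspartate shuttle passes reducing equivalents from the cytosol to the matrix. Fetal heart muscle relies strongly on glucose and lactate, and adult heart muscle draws most of its energy from fatty acids with pyruvate, lactate and ketone bodies as further fuels, which is why these genes are followed when cardiomyocytes are aged in culture.

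The libraries held 24071375 to 34546715 counts, and every one of the 32 genes was detected in every well, from PC at 254 to 484 counts a well to MDH1 at 14338 to 25902. Levels are given as CPM (counts per 1000000 counts of the library) after TMM scaling, and changes as log2 fold changes ± SE from edgeR's quasi-likelihood test with Benjamini-Hochberg adjustment over all 19990 genes. A gene is said to have risen or fallen where its adjusted p was under 0.05. The summed level of 12 cardiomyocyte markers was 37880 to 52900 CPM on Day 30, 48530 to 56490 on Day 60 and 44580 to 51610 on Day 113, with all 12 detected. From Day 30 to Day 113, 4 of the 12 rose (TNNT2, TNNI1, TNNC1 and MYL4) and 1 fell (MYH7). MYH7 was the largest part of the sum and went from 15410 to 9277 CPM, so the level sum does not show that each marker was steady. Markers of other cells also moved between the days. The 9 stromal markers summed to 6883 to 18060 CPM on Day 30, 2605 to 4319 on Day 60 and 6416 to 16140 on Day 113. The 8 endothelial markers summed to 76.0 to 109.5, 49.1 to 79.4 and 221 to 846 CPM, and all 8 rose from Day 30 to Day 113. The 10 endoderm and epithelium markers summed to 1980 to 3429, 1072 to 1248 and 908 to 1477 CPM, and 9 of the 10 fell over the same time. The 6 smooth muscle and pericyte markers tested summed to 694 to 945, 760 to 916 and 965 to 1460 CPM, and the 7 proliferation markers to 336 to 420, 537 to 768 and 208 to 384 CPM. Of 6 pluripotency markers 3 were tested, and they summed to 10.3 to 19.3 CPM on Day 30, 2.39 to 12.5 on Day 60 and 1.27 to 5.01 on Day 113, where 1 of the 3 was at 0 in every well. The part of these other cells in the results below was not tested except where a fit with the stromal sum is given, and fewer cells of a type and less RNA per cell cannot be told apart in such bulk samples.

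The 32 genes did not move as a block. From Day 30 to Day 113, ACAT1, DLD, IDH1, IVD, OXCT1, FH, PDHB, IDH3B, MDH1 and SUCLA2 rose, and BCAT1, BCKDHA, IDH2, CS, DLAT, MDH2 and DLST fell. These were 10 higher and 7 lower genes, or 53.1% of the 32, beside 34.5% of all 19990 genes and 45.2% of the 10356 genes with a mean level of at least 10 CPM. From Day 60 to Day 113, 12 genes passed (5 higher, 7 lower; 37.5%), beside 24% of all genes and 33.7% of those with at least 10 CPM. From Day 30 to Day 60 only 4 passed (IDH3A, GOT1 and ACAT1 higher, GLUD1 lower; 12.5%), beside 10.3% and 13.6%. By direction, 4.39%, 12.9% and 17.3% of all genes rose in the first interval, the second interval and the whole course, and 5.91%, 11.1% and 17.2% fell. In the first interval the members' share was near the background. In the second interval and the whole course it was above that of all genes and nearer to that of genes with at least 10 CPM. Their median log2 fold changes were 0.045, 0.034 and 0.028 in the first interval, the second interval and the whole course, beside -0.011, 0.0016 and -0.018 over all genes. Any change over the 3 days was found for 20 genes, beside 37.1% of all genes. The wells of Days 30 and 60 did not overlap for 8 members (5 higher, 3 lower), beside 24.8% of all genes (10.7% higher, 14.1% lower). Between Days 60 and 113 this held for 13 members (4 higher, 9 lower), beside 30.6% (16.2% higher, 14.4% lower), and between Days 30 and 113 for 17 (8 higher, 9 lower), beside 35.1% (17.1% higher, 18% lower).

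The first count was small and rested on single wells, being 2 without Day 30 replicate 1, 2 or 3 and without Day 60 replicate 1 or 3. It was 7 when the 2 days were fitted without Day 113. The summed level of the 32 genes was 4394 to 4723 CPM on Day 30, 4509 to 5155 on Day 60 and 4091 to 5083 on Day 113, so the total overlapped between all days. Per kilobase of annotated exon, MDH1 was the most abundant member on every day (312 ± 33.5, 395 ± 42.8 and 411 ± 77.4 CPM per kb; SD, n = 4, 3 and 4) and PC the least (2.84 ± 0.339, 2.48 ± 0.153 and 2.37 ± 0.172). IDH2 was second on Days 30 and 113, at 163 ± 14.8 and 103 ± 15.2 CPM per kb (SD, n = 4 each), and BCKDHA went from place 5 to place 13 and ACAT1 from place 26 to place 14.

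**Figure D1:**
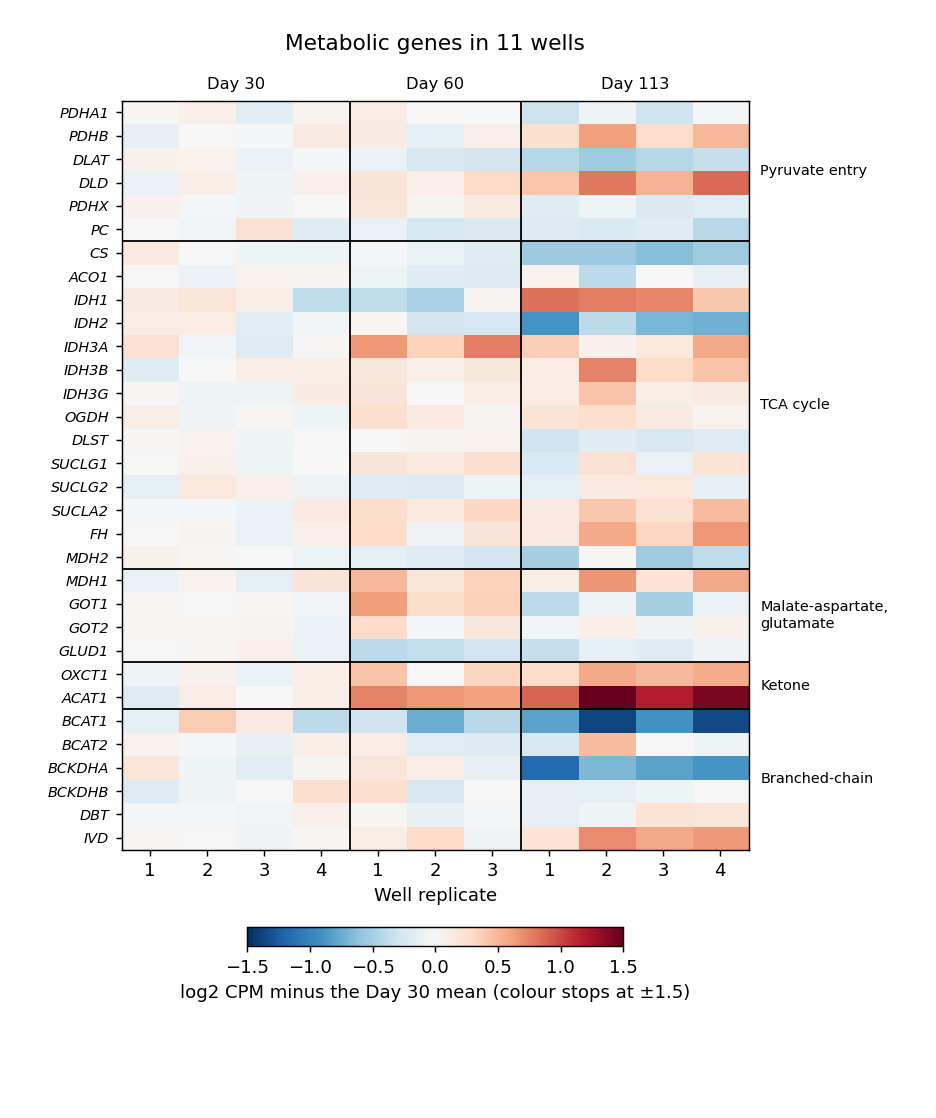
Each row is a gene and each column a well, and the colour is the log2 CPM minus the gene's Day 30 mean, with lines between the 3 days and between the 5 groups of enzymes. ACAT1 is red in all Day 60 and Day 113 wells and BCAT1 and BCKDHA are blue in all Day 113 wells, while the same groups of enzymes hold rows of both colours.

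**Figure D2:**
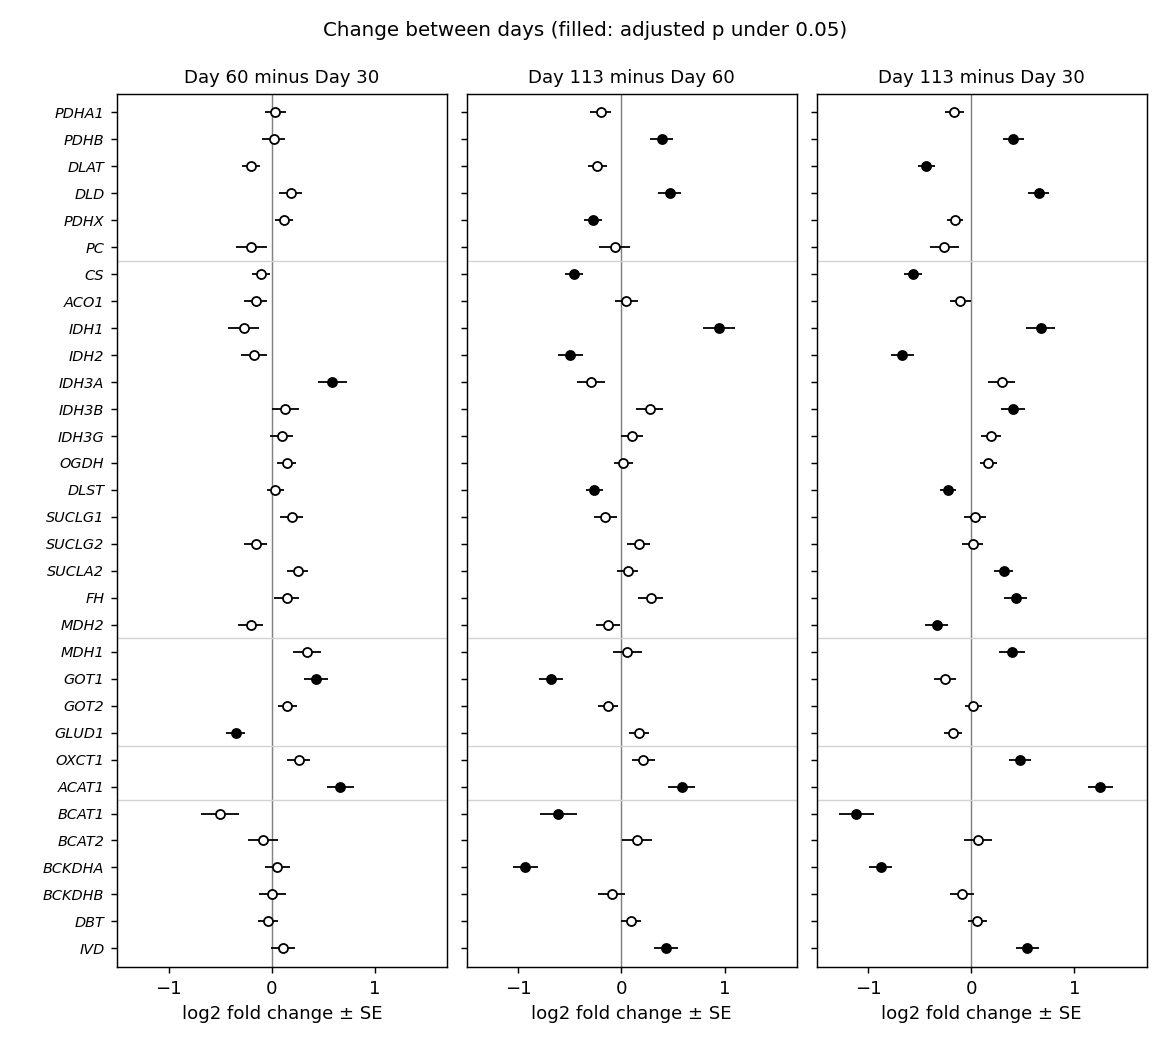
Log2 fold change (points) with its SE (bars) for 32 genes in each pair of days, with filled points for an adjusted p under 0.05 in edgeR. The filled points number 4, 12 and 17 from left to right and stand on both sides of 0 in each panel.

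The transcripts of the pyruvate dehydrogenase complex went both ways. Differences between its subunits were not tested, and protein was not measured. Of the 6 genes of pyruvate entry, 2 rose (PDHB and DLD) and 1 fell (DLAT) over the whole course, PDHX fell in the second interval, and PDHA1 and PC passed in no pair of days. PDHB (chr3:58427630-58433857, minus strand, GENCODE v29 on GRCh38) encodes the beta subunit of the E1 decarboxylase. Its level was 98.1, 107, 105 and 118 CPM in the Day 30 wells, 116, 96.8 and 112 CPM in the Day 60 wells and 126, 163, 129 and 151 CPM in the Day 113 wells. All 4 Day 113 wells lay above all earlier wells. The log2 change from Day 30 was 0.41 ± 0.10 (1.33-fold, adjusted p = 0.00587) and nearly all of it fell after Day 60 (0.39 ± 0.11, adjusted p = 0.0192). Without Day 60 replicate 2 the change after Day 60 no longer passed (0.32, adjusted p = 0.0934).

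DLD (chr7:107890970-107931730, plus strand) encodes dihydrolipoamide dehydrogenase, the E3 subunit that the pyruvate, 2-oxoglutarate and branched-chain complexes share. The DLD wells read 115, 131, 118 and 129.8 CPM on Day 30, 141, 130.3 and 151 on Day 60 and 165, 213, 177 and 223 on Day 113. Days 30 and 60 overlapped slightly, and the lowest Day 113 well stood above every earlier one. DLD rose 1.57-fold over the whole course (log2 0.65 ± 0.10, adjusted p = 0.000169) and 1.38-fold after Day 60 (log2 0.47 ± 0.11, adjusted p = 0.00715). DLAT (chr11:112024814-112064390, plus strand), the E2 acetyltransferase core of the same complex, went the other way. It stood at 103, 103, 93.6 and 96.9 CPM on Day 30, 93.1, 84.0 and 82.0 on Day 60 and 73.5, 68.5, 73.6 and 78.0 on Day 113. No well of one day overlapped a well of another, and the order was Day 30, Day 60, Day 113 from high to low. DLAT fell by 0.44 ± 0.084 on the log2 scale from Day 30 to Day 113 (adjusted p = 0.000782), while neither interval alone passed (adjusted p = 0.19 and 0.0704).

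PDHX (chr11:34915829-35020591, plus strand), the protein that anchors E3 to the E2 core, read 109.7, 104, 102 and 106 CPM on Day 30, 119, 108 and 115 on Day 60 and 92.8, 101, 90.2 and 93.6 on Day 113. The Day 113 wells lay below the others. It fell by 0.28 ± 0.085 after Day 60 (adjusted p = 0.0256), a call lost without Day 60 replicate 1 or 3 or Day 113 replicate 3 (adjusted p of 0.0595 to 0.0932). PDHA1, the catalytic alpha subunit of E1, had means of 170.2 ± 12.1, 174 ± 8.19 and 152 ± 16.4 CPM (SD, n = 4, 3 and 4). PC, the pyruvate carboxylase that refills the cycle with oxaloacetate, had means of 13.7 ± 1.63, 12.0 ± 0.733 and 11.4 ± 0.832 CPM (SD, n = 4, 3 and 4). Counting with or without strand is not given in the sources used here, and exons of DLD overlap LAMB1, those of PDHA1 MAP3K15, of DLAT PIH1D2, of PDHX APIP and of PC LRFN4 on the opposite strand, so reads in those overlaps cannot be told apart.

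The genes of the TCA cycle went both ways as well over the whole course. The 14 genes grouped under the cycle include IDH1 and ACO1, whose enzymes lie outside the mitochondrial cycle. Of the 14, 8 passed from Day 30 to Day 113: IDH1, IDH3B, SUCLA2 and FH rose, and CS, IDH2, DLST and MDH2 fell. In the first interval 1 passed (IDH3A, higher), and in the second 4 did. In the second interval CS, IDH2 and DLST fell, and the only rise was that of IDH1. CS (chr12:56271699-56300392, minus strand), citrate synthase, which makes citrate from acetyl-CoA and oxaloacetate, read 353, 315, 305 and 301 CPM on Day 30, 312, 297 and 281 on Day 60 and 218, 218, 204 and 220.2 on Day 113. The Day 113 wells were close together and lower than each earlier well. The fall was 0.56 ± 0.083 on the log2 scale over the whole course (1.48-fold, adjusted p = 8.49e-05) and 0.46 ± 0.089 after Day 60 (adjusted p = 0.00161).

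The NADP-dependent isocitrate dehydrogenases moved in opposite directions. IDH1 (chr2:208236227-208266074, minus strand), the cytosolic and peroxisomal enzyme, stood at 71.8, 75.1, 70.3 and 50.7 CPM on Day 30, 51.0, 47.4 and 68.0 on Day 60 and 117, 112, 109.9 and 87.9 on Day 113. The first 2 days overlapped, and the Day 113 wells were the 4 highest. IDH1 rose 1.60-fold over the whole course (log2 0.67 ± 0.14, adjusted p = 0.00146) and 1.93-fold after Day 60 (adjusted p = 0.000454), and the change in the second interval exceeded that in the first by 1.22 ± 0.28 (adjusted p = 0.0127). IDH2 (chr15:90083045-90102504, minus strand), the mitochondrial enzyme, had 493, 492, 407 and 442 CPM on Day 30, 461, 378 and 384 on Day 60 and 245, 347, 284 and 278 on Day 113. Its Day 113 wells were the 4 lowest. IDH2 fell by 0.67 ± 0.11 on the log2 scale over the whole course (adjusted p = 3e-04) and by 0.50 ± 0.12 after Day 60 (adjusted p = 0.00767). The test of the interval difference passed for 4 of the 32 genes, beside 9.34% of all genes (1 member higher, beside 4.97%, and 3 lower, beside 4.38%), and for 1 without Day 60 replicate 1. For IDH1 it was lost without Day 60 replicate 1 or 2 (adjusted p of 0.0695 to 0.0878).

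The NAD-dependent isocitrate dehydrogenase, which works inside the cycle, is built from the products of IDH3A, IDH3B and IDH3G. IDH3A (chr15:78131498-78171949, plus strand), the catalytic subunit, had 54.2, 45.0, 40.4 and 46.7 CPM on Day 30, 72.7, 58.7 and 78.6 on Day 60 and 59.6, 48.4, 51.9 and 68.6 on Day 113. The Day 60 wells lay above the Day 30 wells and overlapped those of Day 113. It rose by 0.59 ± 0.14 on the log2 scale to Day 60 (adjusted p = 0.0119; 0.0685 without Day 60 replicate 3), and its later change differed from the earlier one by -0.88 ± 0.24 (adjusted p = 0.0314, and 0.0515 to 0.179 without any one of Day 30 replicates 2 and 3, Day 60 replicates 1 and 3 and Day 113 replicate 3). Over the whole course the IDH3A change was 0.29 ± 0.13 and did not pass (adjusted p = 0.091). IDH3B (chr20:2658395-2664219, minus strand), a regulatory subunit, read 63.4, 72.6, 76.4 and 76.7 CPM on Day 30, 81.0, 75.8 and 81.0 on Day 60 and 77.8, 121, 87.9 and 97.0 on Day 113, with Day 113 replicate 2 the highest. It rose by 0.41 ± 0.12 over the whole course (adjusted p = 0.0143; 0.0554 without Day 30 replicate 1). IDH3G had means of 49.0 ± 3.23, 52.4 ± 3.47 and 56.1 ± 6.43 CPM (SD, n = 4, 3 and 4) and passed in no pair of days. The IDH3A exons overlap ACSBG1 and CIB2, and those of IDH1 and IDH3G overlap IDH1-AS1 and SSR4, on the opposite strand.

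DLST (chr14:74881891-74903745, plus strand), the E2 core of the 2-oxoglutarate dehydrogenase complex, was steady within days. It read 133, 136, 125 and 132 CPM on Day 30, 132, 135 and 137 on Day 60 and 107, 116, 112 and 115 on Day 113, and the last group lay below the others. The fall was small, 0.23 ± 0.076 over the whole course (adjusted p = 0.0288) and 0.26 ± 0.081 after Day 60 (adjusted p = 0.0277). Each call was lost when any one of several wells was left out: Day 30 replicates 1, 2 and 4, Day 60 replicate 1 and Day 113 replicates 1 and 3 for the former (0.054 to 0.0888), and the 3 Day 60 wells and Day 113 replicates 1 and 3 for the latter (0.0582 to 0.07). OGDH, the E1 subunit of that complex, had means of 167 ± 8.56, 185 ± 13.4 and 187 ± 11.7 CPM (SD, n = 4, 3 and 4) and passed in no pair of days. The pseudogene DLSTP1 held 797 counts over all wells, beside 40934 for DLST.

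Succinyl-CoA ligase pairs SUCLG1 with either SUCLA2, for the ATP-forming enzyme, or SUCLG2, for the GTP-forming one. SUCLA2 (chr13:47745736-48037968, minus strand) had 92.7, 92.9, 88.8 and 104 CPM on Day 30, 115, 106 and 118 on Day 60 and 104, 125, 110.4 and 131 on Day 113. The lowest Day 113 well was just under the highest Day 30 well. It rose by 0.31 ± 0.095 over the whole course (adjusted p = 0.0168; 0.0558 to 0.0572 without Day 30 replicate 3 or Day 113 replicate 4). SUCLG1 had means of 112 ± 4.31, 128 ± 4.12 and 115 ± 17.8 CPM and SUCLG2 of 53.7 ± 5.15, 48.3 ± 2.67 and 54.2 ± 6.16 CPM (SD, n = 4, 3 and 4), and neither passed. FH (chr1:241497603-241519761, minus strand), fumarase, read 125, 129, 117 and 133 CPM on Day 30, 154, 121 and 143 on Day 60 and 139, 186, 156 and 197 on Day 113. All Day 113 wells lay above all Day 30 wells, and Day 60 lay across both. FH rose 1.35-fold over the whole course (log2 0.43 ± 0.11, adjusted p = 0.00744).

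MDH2 (chr7:76048051-76067508, plus strand), the mitochondrial malate dehydrogenase that closes the cycle, had 285, 275, 273 and 259 CPM on Day 30, 249, 238 and 224 on Day 60 and 193, 277, 189 and 209 on Day 113. Day 113 replicate 2 stood among the Day 30 wells and the other Day 113 wells below all earlier ones. MDH2 fell by 0.33 ± 0.11 over the whole course (adjusted p = 0.0283), a call lost without any one of Day 30 replicates 1, 2 and 3 and Day 113 replicates 1, 3 and 4 (0.0576 to 0.0951). ACO1, the cytosolic aconitase, had means of 60.3 ± 2.65, 54.1 ± 2.70 and 55.9 ± 7.30 CPM (SD, n = 4, 3 and 4) and passed in no pair of days.

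**Figure D3:**
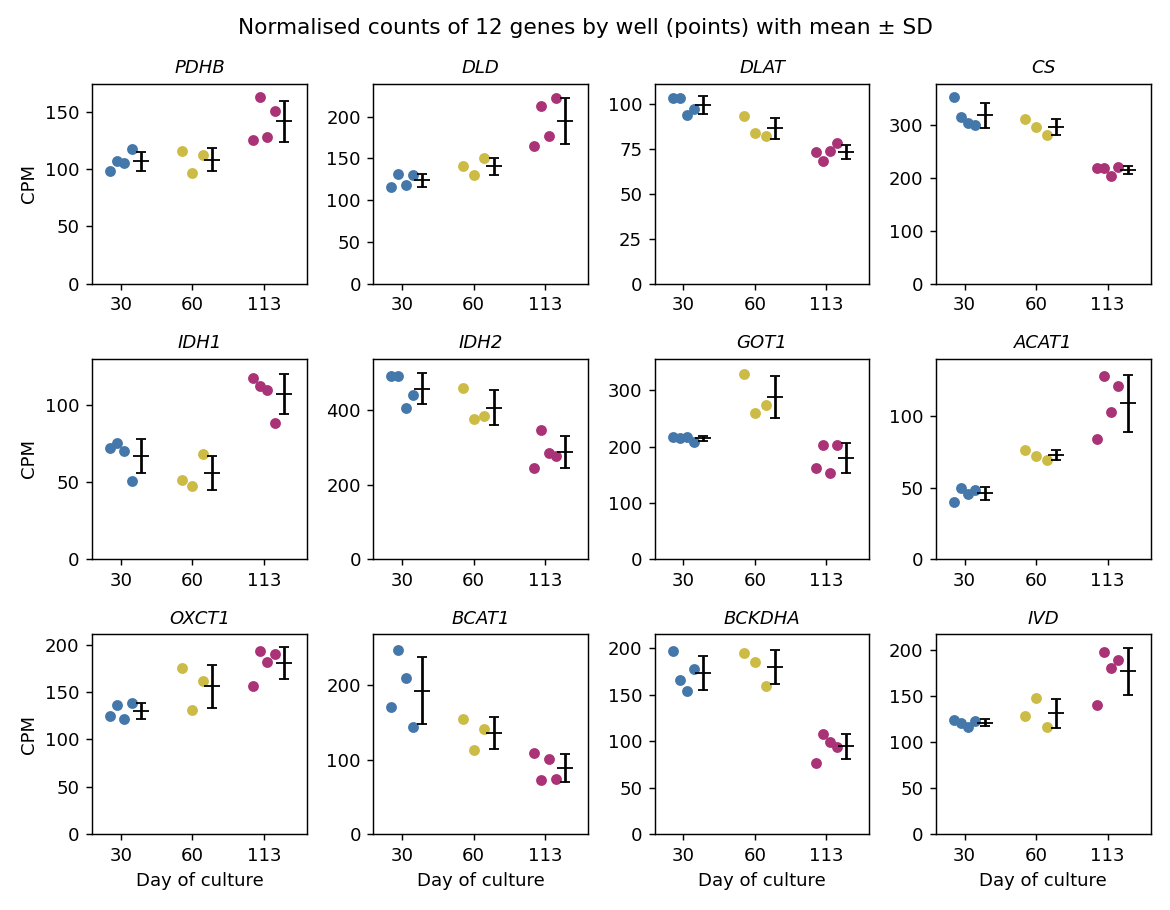
CPM in each well (points) with the mean and SD of the day (bars) for 12 genes on Days 30, 60 and 113, from left to right in each panel. PDHB, DLD, IDH1, ACAT1, OXCT1 and IVD stand higher on Day 113 than on Day 30 and DLAT, CS, IDH2, BCAT1 and BCKDHA lower, while GOT1 is highest on Day 60.

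Of the malate-aspartate and glutamate genes, MDH1 rose over the whole course, GOT1 rose and then fell, GLUD1 fell to Day 60 and GOT2 passed in no pair of days. MDH1 (chr2:63588609-63607197, plus strand), the cytosolic malate dehydrogenase, had 548, 609, 528 and 667 CPM on Day 30, 827, 665 and 742 on Day 60 and 625, 924, 676 and 871 on Day 113. Day 113 replicates 2 and 4 were the highest wells, and replicates 1 and 3 lay near the upper Day 30 wells. MDH1 rose 1.32-fold over the whole course (log2 0.40 ± 0.13, adjusted p = 0.0251), and without Day 30 replicate 1 or 3 or Day 113 replicate 2 or 4 the call was lost (0.0675 to 0.0795). GOT1 (chr10:99396870-99431569, minus strand), the cytosolic aspartate aminotransferase, peaked in the middle of the course. It read 217, 216, 216 and 209 CPM on Day 30, 330.1, 261 and 274 on Day 60 and 163, 203, 152 and 202 on Day 113, with no overlap between any 2 days. GOT1 rose 1.34-fold to Day 60 (log2 0.43 ± 0.12, adjusted p = 0.0269) and then fell by 0.68 ± 0.12 (adjusted p = 0.000637), a difference between the intervals of -1.11 ± 0.20 (adjusted p = 0.00347). The rise was lost without any one Day 30 well or Day 60 replicate 1 (0.0518 to 0.133), whereas the fall kept its call in each leave-one-out fit.

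GOT2, the mitochondrial aspartate aminotransferase, had means of 155 ± 5.93, 172 ± 17.9 and 157 ± 8.30 CPM (SD, n = 4, 3 and 4). GLUD1 (chr10:87050486-87094866, minus strand), the glutamate dehydrogenase that feeds 2-oxoglutarate, had 123, 123, 129 and 114 CPM on Day 30, 92.6, 94.8 and 100.2 on Day 60 and 95.5, 112, 107 and 118 on Day 113. The Day 60 wells lay below the Day 30 wells and the Day 113 wells spread across the gap. GLUD1 fell by 0.35 ± 0.094 to Day 60 (adjusted p = 0.0251), a call lost without any one of Day 30 replicates 1, 2 and 3 or any one Day 60 well (0.0599 to 0.137). Near copies took few counts beside the 35728 of GLUD1: GLUD1P3 had 1593, GLUD1P2 391 and GLUD2 288 over all wells, and exons of GLUD1 overlap SHLD2 and those of MDH1 overlap WDPCP on the opposite strand.

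Both ketone-utilization genes tested rose over the course. ACAT1, the mitochondrial acetoacetyl-CoA thiolase that splits acetoacetyl-CoA into acetyl-CoA and also serves in isoleucine breakdown, rose in both intervals and was the member with the largest rise. Its promoter window, from 250 bases before to 50 bases after the RefSeq start (chr11:108121317-108121616, GRCh38.p14, plus strand), is shown as that of the gene that changed most upward. It holds none of the 4 motifs searched, so it has no capitals.
ACAT1: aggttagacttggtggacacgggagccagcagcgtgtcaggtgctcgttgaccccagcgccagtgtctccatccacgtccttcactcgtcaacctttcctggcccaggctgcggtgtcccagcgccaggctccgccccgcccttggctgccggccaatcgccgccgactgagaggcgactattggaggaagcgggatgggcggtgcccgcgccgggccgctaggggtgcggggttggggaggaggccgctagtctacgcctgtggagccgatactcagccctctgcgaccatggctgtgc
ACAT1 (chr11:108121516-108147776, plus strand) read 39.8, 49.3, 45.6 and 48.5 CPM on Day 30, 76.6, 71.8 and 69.6 on Day 60 and 83.9, 128, 103 and 121 on Day 113. The 3 days did not overlap at all, with each later day higher. The rise was 1.59-fold to Day 60 (log2 0.67 ± 0.13, adjusted p = 0.00384), 0.58 ± 0.13 on the log2 scale from there (adjusted p = 0.00473) and 2.38-fold in all (log2 1.25 ± 0.12, adjusted p = 1.59e-06).

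OXCT1 (chr5:41730065-41870519, minus strand), the succinyl-CoA transferase that activates acetoacetate and is abundant in heart, read 124, 136, 121 and 139 CPM on Day 30, 175, 131 and 162 on Day 60 and 157, 193, 182 and 191 on Day 113. Every Day 113 well was above every Day 30 well, and Day 60 spread across both. OXCT1 rose 1.39-fold over the whole course (log2 0.47 ± 0.10, adjusted p = 0.00223), with neither interval passing alone (adjusted p = 0.163 and 0.196). The summed level of the ketone pair was 164 to 187 CPM on Day 30, 203 to 252 on Day 60 and 241 to 321 on Day 113. The exons of OXCT1 overlap those of OXCT1-AS1 on the opposite strand.

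Among the branched-chain genes, the cytosolic aminotransferase and 1 subunit of the decarboxylase fell, and the leucine enzyme IVD rose. Of 6 genes, 0 passed in the first interval in edgeR (1, BCAT1, at an unadjusted p under 0.05, with an adjusted p of 0.0965), where DESeq2 and limma-voom also passed 0, and 3 passed in both the second interval and the whole course (BCAT1 and BCKDHA lower, IVD higher). BCAT1, the cytosolic branched-chain aminotransferase, common in fetal and proliferating tissues, had the largest fall of all members. Its RefSeq promoter window (chr12:24949052-24949351, GRCh38.p14, minus strand) is shown for that reason, with the E-box CACGTG in capitals. The E-box begins at base 15, with the start itself counted as base 1.
BCAT1: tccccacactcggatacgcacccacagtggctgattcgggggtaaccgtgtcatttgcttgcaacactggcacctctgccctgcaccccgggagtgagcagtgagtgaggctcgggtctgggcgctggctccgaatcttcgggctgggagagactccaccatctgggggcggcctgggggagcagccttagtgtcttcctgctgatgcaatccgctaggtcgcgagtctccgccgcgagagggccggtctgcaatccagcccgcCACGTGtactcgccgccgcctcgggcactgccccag
BCAT1 (chr12:24810022-24949459, minus strand) read 171, 247, 209.7 and 144 CPM on Day 30, 154, 113 and 141 on Day 60 and 108, 72.6, 100.3 and 73.9 on Day 113. Day 113 lay below both earlier days, and the Day 60 wells reached up to the lower Day 30 wells. BCAT1 fell by 1.12 ± 0.17 on the log2 scale (2.17-fold, adjusted p = 0.000104) over the whole course and by 0.61 ± 0.18 after Day 60 (adjusted p = 0.0205; 0.0556 to 0.0893 without Day 60 replicate 1 or 3 or Day 113 replicate 4).

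BCKDHA (chr19:41397460-41425005, plus strand) encodes the E1 alpha subunit of the branched-chain keto acid dehydrogenase, the committed step of the pathway. The wells read 197, 165, 154 and 178 CPM on Day 30, 195, 186 and 159 on Day 60 and 76.9, 108, 98.7 and 93.9 on Day 113. Days 30 and 60 overlapped throughout, and the highest Day 113 well was far below the lowest earlier one. BCKDHA fell by 0.88 ± 0.11 over the whole course (1.84-fold, adjusted p = 2.51e-05) and by 0.93 ± 0.12 after Day 60 (adjusted p = 7.62e-05). The intervals differed by -0.99 ± 0.21 (adjusted p = 0.00915; 0.0653 without Day 60 replicate 1). The partner subunits passed in no pair of days: BCKDHB, E1 beta, had means of 49.2 ± 6.65, 49.4 ± 8.64 and 46.3 ± 1.85 CPM and DBT, the E2 core, of 89.3 ± 3.43, 87.1 ± 4.34 and 92.9 ± 10.6 CPM (SD, n = 4, 3 and 4). Exons of BCKDHA overlap EXOSC5 on the opposite strand.

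IVD (chr15:40405795-40435947, plus strand), isovaleryl-CoA dehydrogenase of leucine breakdown, read 124, 121, 117 and 123 CPM on Day 30, 129, 148 and 117 on Day 60 and 139.8, 198, 180.3 and 189 on Day 113. The Day 30 wells were tight, and all Day 113 wells lay above them. IVD rose 1.46-fold over the whole course (log2 0.54 ± 0.11, adjusted p = 0.00112) and by 0.43 ± 0.12 after Day 60 (adjusted p = 0.0152; 0.0623 to 0.0903 without Day 60 replicate 1 or 3). BCAT2, the mitochondrial aminotransferase and main form in muscle, had means of 53.9 ± 3.37, 50.9 ± 6.26 and 56.4 ± 12.8 CPM (SD, n = 4, 3 and 4). Across the 11 members that passed in no pair of days, log2 changes ran from -0.26 (PC, Day 30 to Day 113) to 0.19 (IDH3G, same days), sizes at which a missed test does not show equality.

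The promoters of the members were searched for 4 short motifs on both strands: TCAAGGTCA of ESRRA, CGCATGCG of NRF1, CCGGAAGT of GABPA and the E-box CACGTG. RefSeq windows matched 30 of the 32 members by symbol (not OGDH and BCAT2) and gave 42 windows, since some genes have several starts. TCAAGGTCA was in 0 of the 42 windows, beside 0.353% of 35116 windows of all genes and 0.235% of the 19584 windows of genes in the count table. The same 2 backgrounds follow in that order. CGCATGCG was in 1 (BCKDHB, 2.38%, beside 2.02% and 2.81%). CCGGAAGT was in 3 (DLST, IDH3B and MDH2, 7.14%, beside 4.14% and 5.87%). CACGTG was in 2 (BCAT1 and PDHB, 4.76%, beside 7.26% and 8.62%). No match overlapped another, and the genes sharing CCGGAAGT were 2 that fell (DLST and MDH2) and 1 that rose (IDH3B). A match is a description of letters in these 300 bases.

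Ratios of paralogues and partner subunits were taken within each library, where scaling cancels. The count ratio of IDH2 to IDH1 was 6.86, 6.55, 5.79 and 8.72 in the Day 30 wells, 9.04, 7.98 and 5.64 in the Day 60 wells and 2.09, 3.09, 2.58 and 3.16 in the Day 113 wells. The Day 113 wells stood apart, with log2 differences of -1.36 from Day 30 and -1.46 from Day 60. MDH2 to MDH1 was 0.521, 0.452, 0.517 and 0.388 on Day 30, 0.301, 0.358 and 0.302 on Day 60 and 0.309, 0.299, 0.279 and 0.240 on Day 113. Day 30 lay above both later days, with log2 differences of -0.54 (Day 60) and -0.73 (Day 113). GOT2 to GOT1 was 0.725, 0.730, 0.734 and 0.700 on Day 30, 0.572, 0.588 and 0.637 on Day 60 and 0.928, 0.819, 0.982 and 0.802 on Day 113, lowest on Day 60 and without overlap between any 2 days. BCKDHB to BCKDHA was 0.218, 0.280, 0.320 and 0.328 on Day 30, 0.299, 0.221 and 0.308 on Day 60 and 0.586, 0.413, 0.474 and 0.519 on Day 113, where it was higher than on Day 30 by 0.80 on the log2 scale.

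BCAT2 to BCAT1 was 0.325, 0.215, 0.237 and 0.399 on Day 30, 0.377, 0.423 and 0.332 on Day 60 and 0.422, 1.03, 0.533 and 0.694 on Day 113, higher than on Day 30 by 1.15 on the log2 scale without overlap. SUCLA2 to SUCLG2 was 1.91, 1.56, 1.58 and 2.06 on Day 30, 2.42, 2.28 and 2.29 on Day 60 and 2.13, 2.11, 1.85 and 2.68 on Day 113, and did not overlap between Days 30 and 60. A two-sided exact permutation test cannot go below p = 0.0286 with these numbers of wells, and after adjustment over 18 tests the smallest value was 0.0571, so no ratio passed. That value was reached by 9 of the 18 tests.

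**Figure D4:**
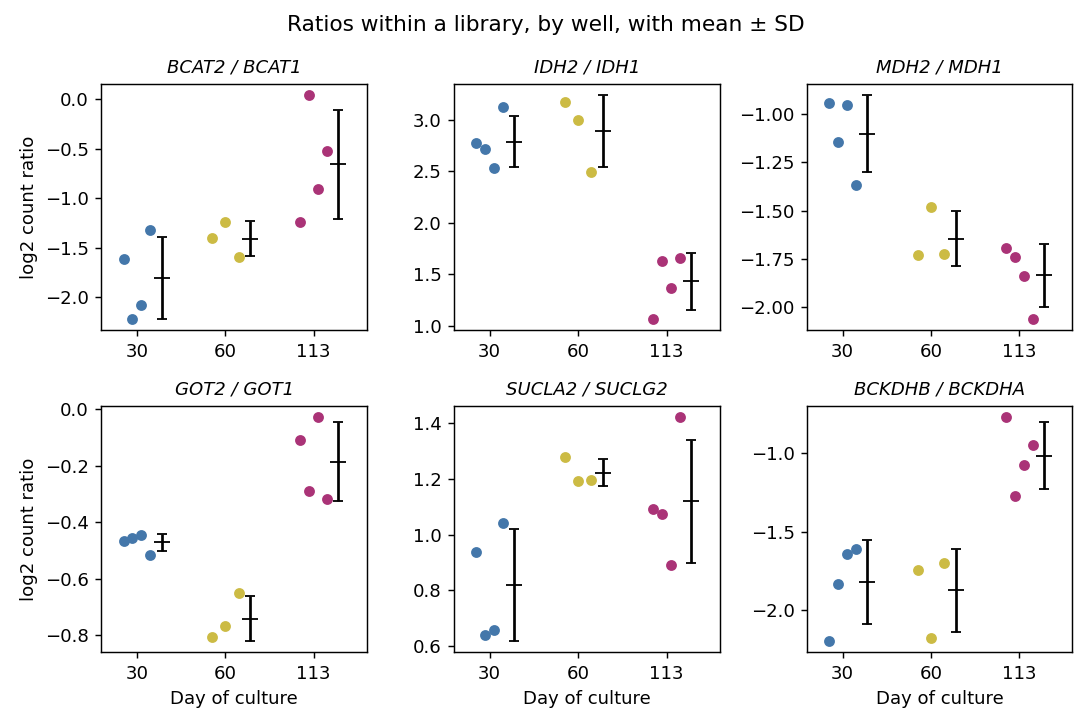
Log2 ratio of counts of 2 genes in each library (points) with the mean and SD of the day (bars), by day of culture. IDH2 to IDH1 drops on Day 113, MDH2 to MDH1 is lower on Days 60 and 113 than on Day 30, GOT2 to GOT1 is lowest on Day 60 and BCKDHB to BCKDHA is highest on Day 113.

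Among other genes of the same pathways, the lists for pyruvate entry, the cycle, ketone bodies and branched-chain breakdown also held genes of both directions. Of 13 genes of pyruvate import and pyruvate dehydrogenase control, 3 rose and 2 fell from Day 30 to Day 113 (38.5%). Over the same days 34.5% of all genes passed, and 45.2% of those with at least 10 CPM. The share of this list was near that background, which also stands beside the lists below. MPC1, a subunit of the mitochondrial pyruvate carrier, went from 51.4 ± 6.86 to 101 ± 11.9 and 74.2 ± 10.0 CPM (SD, n = 4, 3 and 4), a rise of 0.98 ± 0.13 to Day 60 (adjusted p = 0.000196) and 0.53 ± 0.12 overall (adjusted p = 0.00302). PDP1, a phosphatase that activates the complex, rose by 0.77 ± 0.15 (adjusted p = 0.00111) and PDK2, a kinase that inhibits it, by 0.30 ± 0.11 (adjusted p = 0.0419). The PDK2 call was lost in 8 of 22 alternative settings. PDP2, the other phosphatase, fell by 1.21 ± 0.16 (adjusted p = 2.87e-05) and PDPR, a phosphatase regulator, by 0.79 ± 0.12 (adjusted p = 0.000115). PDK4, the kinase induced by fasting in adult heart and named here after its values were seen, stayed low at 2.43 ± 0.714, 1.84 ± 0.545 and 2.56 ± 0.984 CPM (SD, n = 4, 3 and 4; adjusted p = 0.893 from Day 30 to Day 113). The other kinases, PDK1 and PDK3, are also named after their values were seen. PDK1 had means of 743, 786 and 619 CPM and PDK3 of 123, 154 and 104. Both fell after Day 60 (log2 -0.35 ± 0.11 and -0.57 ± 0.13, adjusted p = 0.03 and 0.00415 in edgeR). Over the whole course neither passed (adjusted p = 0.0547 and 0.132).

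Of 13 further genes of the cycle and of its refilling, 5 rose and 3 fell (61.5%). ME2, a mitochondrial malic enzyme, rose by 0.57 ± 0.087 (adjusted p = 0.000114), SDHD by 0.51 ± 0.10 (adjusted p = 0.00133) and ME3, another mitochondrial malic enzyme, by 0.49 ± 0.18 (adjusted p = 0.0434). ME1, the cytosolic malic enzyme, fell by 1.00 ± 0.13 (adjusted p = 2.02e-05), SDHA by 0.51 ± 0.10 (adjusted p = 0.00114) and ACLY, which cleaves citrate in the cytosol, by 0.26 ± 0.088 (adjusted p = 0.0319). Of 22 alternative settings, the ME3 call was lost in 10 and the ACLY call in 9. Transcripts of the succinate dehydrogenase subunits thus also went both ways. SDHA, the flavoprotein, went from 319 to 224 CPM and SDHD, a membrane anchor, from 82.3 to 117. SDHB and SDHC, named after their values were seen, went from 60.1 to 77.1 and from 73.6 to 100.1 (log2 0.36 ± 0.11 and 0.44 ± 0.089, adjusted p = 0.0205 and 0.00114). Of 5 malate-aspartate and glutamate carriers, 1 passed (20%): SLC25A13, an aspartate-glutamate carrier, fell by 0.60 ± 0.12 (adjusted p = 0.000825).

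Of 7 further ketone genes tested, 3 rose and 2 fell from Day 30 to Day 113 (71.4%), and those that fell are not reported here by name. ACAT2, the cytosolic thiolase, rose by 0.60 ± 0.13 (adjusted p = 0.00242), SLC16A1, a transporter of lactate, pyruvate and ketone bodies, by 0.52 ± 0.10 (adjusted p = 0.000825) and BDH2 by 0.35 ± 0.099 (adjusted p = 0.0128).

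Of 20 further branched-chain genes, 6 rose and 3 fell (45%), a share near that of genes with at least 10 CPM. HIBADH, of valine breakdown, and ACADSB, of isoleucine breakdown, rose by 0.72 ± 0.10 and 0.72 ± 0.12 (adjusted p = 4.53e-05 and 0.00018), and HSD17B10, of isoleucine breakdown, by 0.60 ± 0.15 (adjusted p = 0.0061). SLC7A5, the plasma membrane carrier of large neutral amino acids, fell by 1.21 ± 0.25 (adjusted p = 0.00156), from 94.6 ± 38.0 CPM through 12.9 ± 3.81 to 40.9 ± 10.4 (SD, n = 4, 3 and 4). AUH and ALDH6A1, of leucine and valine breakdown, fell by 0.40 ± 0.11 and 0.35 ± 0.11 (adjusted p = 0.0113 and 0.0237). The ALDH6A1 call was lost in 4 of 22 alternative settings. For comparison, 14 mitochondrial genes outside these pathways held 4 that rose and 2 that fell over the whole course (42.9%). Their median log2 change was 0.078.

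BCAT1 had the order of the stromal marker sum within Day 30. On Day 30 the sum was 9743, 18060, 15650 and 6883 CPM in replicates 1 to 4, and BCAT1 was lowest in replicate 4 and highest in replicate 2. On Day 113 the sum was 16140, 7577, 13050 and 6416 CPM, and BCAT1 was higher in replicates 1 and 3 than in replicates 2 and 4. ACAT1 and MDH1 were lower in Day 113 replicates 1 and 3 than in replicates 2 and 4, but on Day 30 neither was ordered by the sum: ACAT1 was highest in replicate 2, the well with the highest sum, and MDH1 was higher there than in replicate 1. On Day 60 BCAT1 was not ordered by the sum, and the sums were all lower than on the other days, without overlap. A fit that holds both day and sum can therefore hardly tell them apart in comparisons with Day 60. A call lost there does not show that the sum accounts for the change. With the log2 stromal sum added to the edgeR fit, an alternative chosen after seeing the data, BCAT1 gained 0.44 ± 0.093 (SE) per doubling of the sum and MDH1 -0.22 ± 0.095. Neither passed (adjusted p = 0.0654 and 0.683), and 0 of the 32 members did (4 at an unadjusted p under 0.05), beside 0.265% of all genes. The 4 were BCAT1, MDH1, SUCLA2 (-0.177 ± 0.0689) and FH (-0.185 ± 0.0863), and most of the 32 members had a negative value.

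In that fit the same 17 members passed from Day 30 to Day 113 in the same directions, with ACAT1 at 1.21 and BCAT1 at -1.02. The stromal sums of these days were alike (means of 12580 and 10800 CPM), so adding the sum could move this comparison little. The kept calls are therefore not a test of the part of stromal cells. For the second interval 5 of the 12 calls were left (PDHB, DLD and ACAT1 higher, BCAT1 and BCKDHA lower). The other 7 kept their direction without passing (adjusted p of 0.056 to 0.412): CS stood at -0.46, the same as without the sum, IVD at 0.59 (0.43 without it), GOT1 at -0.54 (-0.68), IDH1 at 0.69 (0.95), IDH2 at -0.41 (-0.50), PDHX at -0.21 (-0.28) and DLST at -0.20 (-0.26). For the first interval 0 of 4 were left (1 member at an unadjusted p under 0.05; adjusted p of 0.292 to 0.8). ACAT1 stood at 0.42 (0.67 without the sum), IDH3A at 0.35 (0.59), GOT1 at 0.26 (0.43) and GLUD1 at -0.45 (-0.35), each in its earlier direction. Of the 4 interval differences 0 were left (6 members at an unadjusted p under 0.05), with adjusted p of 0.493 to 0.816, and each kept its direction at a smaller size: GOT1 -0.80 (-1.11 without the sum), BCKDHA -0.61 (-0.99), IDH1 0.66 (1.22) and IDH3A -0.44 (-0.88). FN1 made up a large part of the Day 30 sum (mean 6992 CPM, falling to 1672 on Day 113), and the 9 markers did not move together, since 4 rose and 3 fell over the whole course.

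**Figure D5:**
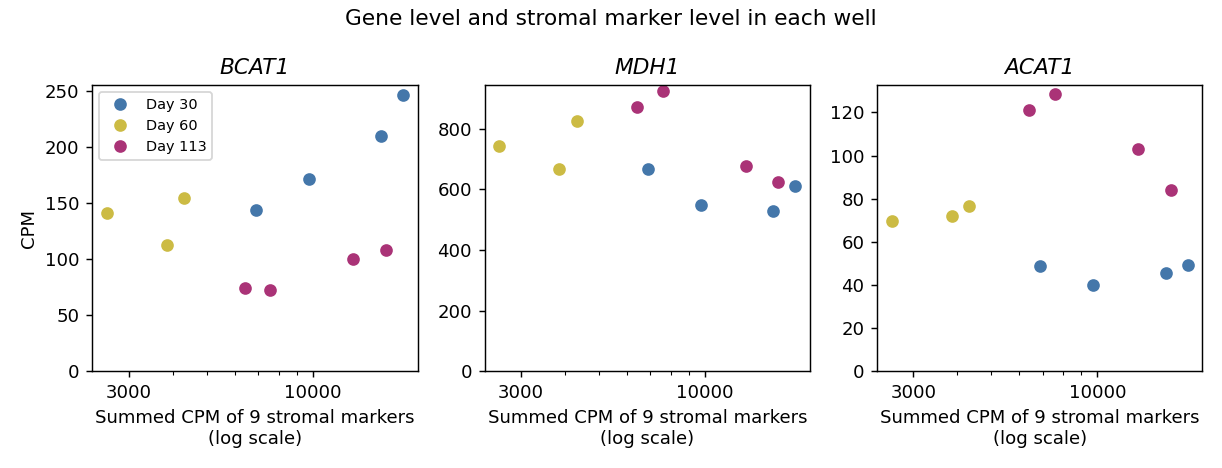
CPM of 3 genes (vertical axis) against the summed CPM of 9 stromal markers (horizontal axis, log scale) in each well, coloured by day. BCAT1 follows the order of the sum within Day 30. It is higher in the Day 113 wells with the higher sums, and is not ordered by the sum on Day 60. ACAT1 and MDH1 are lower in the Day 113 wells with the higher sums but not ordered by the sum on Day 30. The Day 60 wells stand at the left with sums of 2605 to 4319 CPM.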

How the data were processed

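The authors deposited a table of read counts, whole numbers with no normalization, for 11 libraries and 19990 genes. Per the submitters' processing notes, STAR 2.5.3a, featureCounts 2.0.3 and hg38 were used; the annotation and the strand setting are not given in the sources used here. The authors also deposited TPM values. The gene lengths implied by count over TPM did not repeat between libraries (median Spearman rho of -0.0016 across genes over 55 library pairs), so TPM was used only for that check.

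All results rest on the counts. Genes were tested with edgeR 4.0.16 in R 4.3.3 (glmQLFit and glmQLFTest, TMM scaling, all 11 wells in one fit, day as the only factor), with Benjamini-Hochberg adjustment over 19990 genes within each contrast and a threshold of 0.05. Filtering by filterByExpr (minimum count 10) left all of them in. Fold changes are given in the direction named, and SE is the absolute log2 fold change over the square root of F. This procedure was tested on simulated data. Library totals were 24071375 to 34546715 counts, without molecular identifiers. Wells of a day differed by more than sampling noise (their chi-square was 11.7 to 88.7 times its degrees of freedom) and were counted as separate samples.

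Ratios used log2 of counts plus 0.5 within each library, and were compared by exact two-sided permutation, with Benjamini-Hochberg adjustment over 18 tests. Gene positions are GENCODE v29 on GRCh38, and promoter sequences are RefSeq on GRCh38.p14. Levels per kb divide CPM by the annotated exon union, which may differ from the authors' annotation. The exons of 20 members overlap another annotated gene and those of 13 a gene of the table.

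Well values are printed for members that passed in at least 1 pair of days, and means with SD, in place of the ranges first planned, for the others. From each further list, up to 3 genes with the highest and 3 with the lowest change that passed from Day 30 to Day 113 are named, with a mean of at least 1 CPM in the higher day. The planned pair of protein sequences is not printed. Some genes of the further ketone list are not reported here. The members and lists were chosen with earlier results of these data known. Alternatives were other scalings and filters, DESeq2 1.42.0, limma-voom (limma 3.58.1), robust dispersion, a threshold of 0.01, pairs of days alone, a block on replicate number, each well left out, a pseudocount of 5 for ratios and, added after seeing the data, the stromal marker sum as a covariate.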

Additional observations from a re-analysis of the deposited data

Results flagged for a closer look

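In 4 of 64 groups of 4 wells, 1 well stood apart from the other 3 by Dixon's 95% criterion (gap over range), for which chance gives about 1 in 20 groups, or 3.2 of 64. CS in Day 113 replicate 3 was 204 CPM beside 218 to 220.2 in the others (gap 0.851 of the range). IDH3G in Day 113 replicate 2 was 65.7 CPM beside 52.0 to 53.6 (0.88). GOT1 in Day 30 replicate 4 was 209 CPM beside 216 to 217 (0.835), and GOT2 in the same well was 146 CPM beside 157 to 159 (0.898).

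The change from Day 60 to Day 113 differed from that from Day 30 to Day 60 for 4 genes in the edgeR test of the difference, in log2 units. It was higher for IDH1 (1.22, adjusted p = 0.0127) and lower for IDH3A (-0.88, adjusted p = 0.0314), GOT1 (-1.11, adjusted p = 0.00347) and BCKDHA (-0.99, adjusted p = 0.00915). Day 60 had 3 wells and the lowest stromal marker sums (2605 to 4319 CPM). With that sum in the fit 0 of the 4 differences passed in edgeR (adjusted p of 0.493 to 0.816, with 6 members at an unadjusted p under 0.05). Each kept its direction, at 0.66 for IDH1, -0.44 for IDH3A, -0.80 for GOT1 and -0.61 for BCKDHA. The Day 60 sums did not overlap those of the other days, so that fit can hardly tell day and sum apart. The lost calls do not show that the sum accounts for the differences.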

How the results depend on the processing

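The count of members that passed from Day 30 to Day 113 (17) was 12 to 17 under the other scalings, filters, tests, the threshold of 0.01, the 2 days alone and the stromal covariate, and 13 to 18 with 1 well left out. The first interval (4) gave 1 at an adjusted p under 0.01, 7 with the 2 days alone, 0 with the stromal covariate and 2 to 4 with 1 well left out. The second interval (12) gave 7 at the stricter threshold, 5 with the stromal covariate and 8 to 13 with 1 well left out. With the 2 days alone, PDHB, PDHX, DLST and IVD lost their calls in the second interval, and DLST and MDH2 over the whole course. Any change (20) gave 13 at the stricter threshold and 14 to 19 with 1 well left out. The interval difference (4) gave 2 at the stricter threshold, 0 with the stromal covariate and 1 to 5 with 1 well left out. A stricter threshold lowers counts by construction. For the other settings the cause was not tested. Of the alternatives for single genes, 1800 kept direction and side of the threshold, 233 kept the direction but lost the call and 0 reversed. All of these were values that had passed in the main fit. Some could not differ: the filter removed 0 genes, so leaving it out gave the same fit, and the stricter threshold could not reverse a direction.

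Same-numbered wells correlated at r = 0.0333 to 0.248 over 10 pairs, 6 of them over 0.1, and 9 of 11 wells correlated best with their own number, which is a hint from the data only. A replicate block on the number gave 6, 12, 17, 20 and 4 members for the first interval, the second, the whole course, any change and the interval difference.

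The ratio of BCKDHB to BCKDHA from Day 30 to Day 60 (log2 difference -0.0534) reversed to 0.0173 with the replicate block and ran from -0.1785 to 0.0988 with 1 well left out. It was above 0 without Day 30 replicate 3 or 4 or Day 60 replicate 2. The ratio of IDH2 to IDH1 (0.102) ran from -0.0411, without Day 60 replicate 1, to 0.299. Neither passed in any setting. Depth was lowest for PC, at 254 to 484 counts a well.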
